A study of Mus musculus with 16 samples.

Results

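The miR-290 locus of the mouse carried 9 of the 26704 OCT4 peaks in the merged list from 2TS22C cells. The locus was taken as a window of 120 kb on chromosome 7 (build mm10) that holds the protein-coding gene AU018091 and the microRNA genes miR-290 to miR-295, and its members were the peaks whose midpoint lay in that window. The window was chosen by its peak count, because it holds one of the largest clusters of peaks in the list, so the number and spacing of its peaks are given as a description with no test. Of those 9 peaks, 6 lay between AU018091 and the microRNA hairpins, 3 lay to the right of the hairpins and 0 lay in AU018091.

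The study used ChIP-seq, the sequencing of DNA fragments precipitated with an antibody, to follow chromatin in mouse embryonic stem (ES) cells after loss of SOX2 or OCT4. In the 2TS22C line a Tet-Off promoter drives Sox2, so doxycycline shuts off SOX2. OCT4 ChIP-seq comprised 2 libraries of untreated cells (SOX2 ON) and 2 libraries of cells given 1 μg/ml doxycycline (SOX2 OFF), both collected at 26 h, and all were grown in serum with LIF and inhibitors of the GSK3 and MEK kinases. The list is 1 merged set of peaks with no height and no library name, so SOX2 OFF was not compared with SOX2 ON. The depth is unknown, and a place without a peak cannot be told from a place below the calling threshold. The sources used here do not say which of the 4 libraries entered the merge, or whether reads were pooled before peaks were called.

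OCT4 is a transcription factor of pluripotent cells that binds DNA alone or beside SOX2 on a composite motif. The miR-290 cluster is transcribed from the plus strand as 1 precursor whose hairpins are cut into short microRNAs. These are among the most abundant microRNAs of mouse ES cells, where they are known to promote rapid passage from G1 to S phase. A microRNA finds its target messages mainly through its seed, bases 2 to 8 from its 5′ end.

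The mature microRNAs are shown first because they are the products of the locus around which the peaks lie. The sequences are RefSeq's on GRCm38.p6, 5′ to 3′, with the seed in capitals. RefSeq's table gave 17 arms from the 9 hairpins annotated at chr7:3218626-3220841, a span of 2216 bp, of which 7 are on the plus strand and 2 (Mir290b and Mir292b) on the minus strand. miR-292a-3p, another arm of the locus, was not analysed here, so all counts of seeds cover the analysed arms only. Of these 17 arms, 3 shared the seed AAGUGCU.
miR-291a-3p: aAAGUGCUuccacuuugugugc
miR-294-3p: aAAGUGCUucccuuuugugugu
miR-295-3p: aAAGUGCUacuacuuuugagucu
A further 2 of the 17 had the same first 6 seed bases, AAGUGC, and a different last base.
miR-290a-3p: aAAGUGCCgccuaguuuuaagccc
miR-291b-3p: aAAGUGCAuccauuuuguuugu
The 5′ arms of 3 hairpins shared the seed CUCAAAC.
miR-290a-5p: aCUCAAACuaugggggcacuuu
miR-292a-5p: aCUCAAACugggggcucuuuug
miR-293-5p: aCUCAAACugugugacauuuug
The 5′ arms of miR-291a and miR-291b shared AUCAAAG, and 2 arms, 1 of them from the minus strand, shared CUCAAAA.
miR-291a-5p: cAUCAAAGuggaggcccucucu
miR-291b-5p: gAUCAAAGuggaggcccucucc
miR-294-5p: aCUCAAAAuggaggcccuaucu
miR-292b-5p: aCUCAAAAccuggcggcacuuuu
The other 5 arms each had a seed of their own.
miR-293-3p: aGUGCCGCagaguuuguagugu
miR-295-5p: aCUCAAAUguggggcacacuuc
miR-290b-3p: aAGUGCCCccauaguuugagua
miR-290b-5p: gCUUAAAAcuaggcggcacuuu
miR-292b-3p: aAGAGCCCccaguuugaguau
Of the 1679 mature names analysed, which are not all mouse microRNAs and leave out miR-292a-3p, 8 (0.476%) carried AAGUGC at bases 2 to 7, and 5 of those 8 came from this locus. The remaining 3 were miR-350-5p and 2 members of the miR-302 cluster, another microRNA cluster of pluripotent cells, whose seed AAGUGCU equals that of miR-291a-3p, miR-294-3p and miR-295-3p.
miR-302b-3p: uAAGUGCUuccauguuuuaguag
miR-302d-3p: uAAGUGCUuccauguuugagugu

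The peaks were numbered 1 to 9 from left to right. Peak 1 covered chr7:3193091-3193756, 25.2 kb before the start of Mir290a, and was 666 bp wide. Peak 2 covered chr7:3201168-3201635, 17.2 kb before Mir290a, and was 468 bp wide. Peak 3 lay 14.4 kb before Mir290a and was 452 bp wide. These 3 lay in intergenic sequence. Peak 4 covered chr7:3206530-3206952, 11.9 kb before Mir290a, and was 423 bp wide. Peak 5 covered chr7:3212090-3212471, 6.34 kb before Mir290a, and was 382 bp wide. Peak 6 covered chr7:3213312-3213992, 4.97 kb before Mir290a, and at 681 bp was the widest of the 9. These 3 were intergenic too. Peak 7 covered chr7:3223024-3223386, 4.58 kb after the start of Mir290a and 2.36 kb after the end of Mir295, was 363 bp wide, and lay in an intron of Nlrp12. Nlrp12, a gene of the NOD-like receptor family of innate immunity, is annotated on the minus strand at chr7:3218784-3249740. It spans 7 of the 9 hairpins and lies wholly to the right of Mir290a and Mir290b. On the plus strand RefSeq annotates a long non-coding RNA, D7Ertd143e, over the same 7 hairpins at chr7:3218784-3221015. Peak 8 covered chr7:3267175-3267730, 48.8 kb after the start of Mir290a, and was 556 bp wide. Peak 9 covered chr7:3269207-3269495, 50.7 kb after the start of Mir290a, and at 289 bp was the narrowest. Peaks 8 and 9 were intergenic and lay nearest the pseudogene Gm20553.

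**Figure D1:**
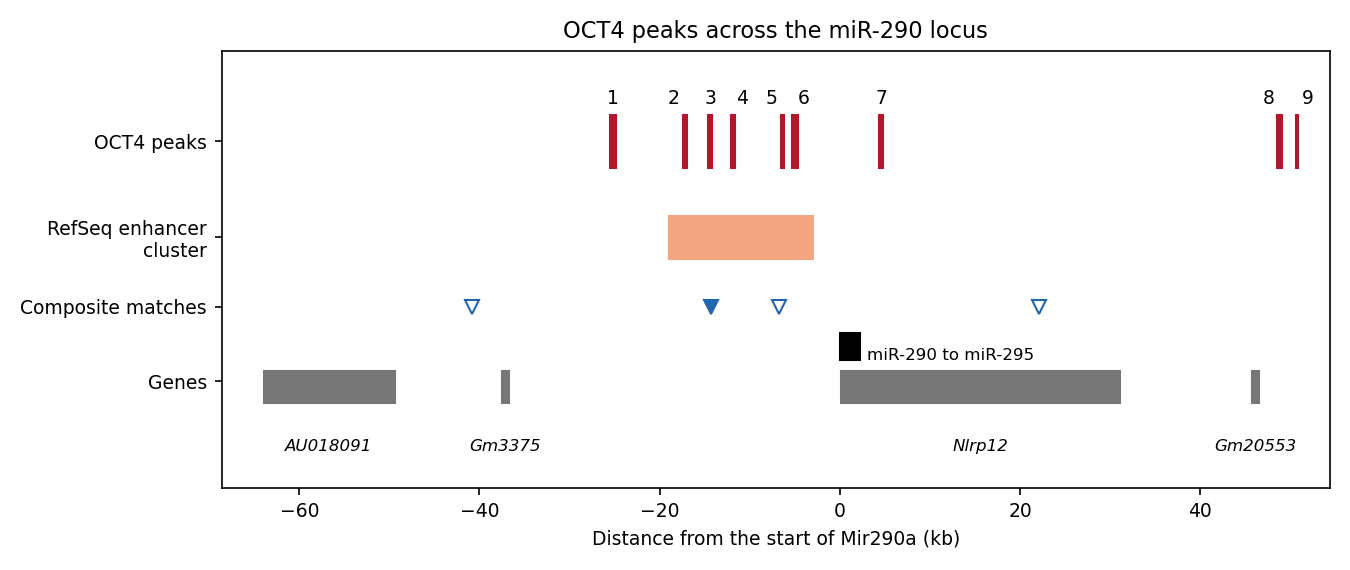
OCT4 peaks (red, numbered 1 to 9), the enhancer cluster annotated by RefSeq (orange), matches to the composite motif with at most 3 mismatches (triangles, filled where in a peak) and genes (grey, hairpins black), by distance in kb from the start of Mir290a. Peaks 1 to 6 lie between AU018091 and the hairpins, and 1 of 4 composite matches lies in a peak.

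Midpoints of neighbouring peaks were 7.98, 2.85, 2.49, 5.54, 1.37 and 9.55 kb apart from peak 1 to peak 7. The gap from peak 7 to peak 8 was 44.2 kb, and peaks 8 and 9 were 1.9 kb apart. Joining midpoints within 10 kb therefore gave a cluster of 7 peaks over 30.3 kb and a separate pair over 2.32 kb. At the edges of the window, the midpoint of peak 1 was 43.4 kb inside and that of peak 9 was 0.649 kb inside. The nearest peaks outside were chr7:3014343-3014553, 136 kb to the left, and chr7:3290071-3290332, 20.2 kb to the right, the latter in Myadm, which encodes a membrane protein first known from myeloid cells.

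AU018091 gives the locus its label, yet no peak lay in the gene (chr7:3154658-3169203, minus strand) or within 20 kb of any of its 3 annotated transcription start sites (TSSs). The nearest was peak 1, 24.2 kb from the gene's TSS at chr7:3169203. By midpoint, 8 of the 9 peaks were closer to the span of the hairpins than to any AU018091 TSS, peak 1 being the exception. Within 20 kb of the hairpins there were 6 peaks, and none lay in the 2216 bp of the hairpins themselves. Among protein-coding genes, AU018091 had the closest TSS for peaks 1 to 4 and Nlrp12 for peaks 5 to 9. The TSS of Nlrp12 had 0 peaks within 10 kb, and its nearest was peak 8 at 17.7 kb. Gm3375, a processed pseudogene, had its nearest peak, peak 1, at 12.3 kb, and Gm20553 had peak 8 at 2.26 kb. Myadm was the nearest protein-coding gene beyond the window on the right, with its TSS 19.7 kb from peak 9, and GENCODE M21 lists 0 protein-coding TSSs on chromosome 7 before the window.

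All 9 peaks were distal to protein-coding TSSs. Their distance to the nearest such TSS ran from 17.7 to 37.5 kb with a median of 32.2 kb, where the median of all peaks was 17.8 kb. No member lay within 1 kb of such a TSS (0 of 9), against 13.8% of all peaks. The start of the miR-290 precursor was not located here, so distances to it are not given. Intergenic midpoints numbered 8 of 9, against 46.1% of all peaks, and intronic midpoints 1 of 9, against 45.5%. Where a peak falls relative to genes was set by the choice of window, so these shares describe the window and are not a property shared by independent sites.

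RefSeq annotates chr7:3199611-3215602 as an enhancer cluster of Mir290 that was targeted experimentally. It records the cluster as a positive regulator of Mir290a and AU018091 in mouse ES cells. Peaks 2 to 6, that is 5 of the 9, had their midpoint in that cluster and covered 15% of its 16 kb. Of all peaks in the list, 0.67% had a midpoint in any element of the RefSeq functional element set. The 5 members all lie in that 1 cluster, at a locus chosen for its peaks, so these shares do not compare independent sites. RefSeq annotates 10 other ES cell enhancer clusters of the same kind, a comparison added after the data had been seen. Each of the 10 held at least 2 OCT4 peaks, with a median of 3 and a maximum of 5. The Mir290 cluster thus shared the highest count with Med13l, which had 5 peaks over 19.6 kb. Per 10 kb the Mir290 cluster held 3.13 peaks, against 0.928 in that of Sall1, a zinc-finger gene of pluripotent cells, 2.43 in that of Esrrb, a nuclear receptor of naive pluripotency, and 4.91 in the cluster named DppUp, which was the densest of the 11. Peaks with the composite motif numbered 1 of 5 in the Mir290 cluster and 4 of 29 (13.8%) in the other 10 together. Peak counts at Mir290 follow from the rule that chose the locus and carry no test.

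By median, the members were wider than the peaks of the list. Their widths ran from 289 to 681 bp with a median of 452 bp, where all peaks had a median of 352 bp and quartiles of 267 and 471 bp. Wider than that median were 8 of 9 members, against 50% of all peaks, and peaks 1 and 6 were wider than 92.5% and 93.2% of all peaks. A width here is that of merged peaks, so it may join peaks of more than 1 library. GC content was 43.8 to 45.3% in 7 members and higher in peak 2 (52.1%) and peak 4 (53.9%), and its median of 44.9% lay below the 46.4% of all peaks. The observed to expected ratio of CpG dinucleotides ran from 0.0469 in peak 3 to 0.342 in peak 9, with a median of 0.13. All peaks had a median of 0.206 and quartiles of 0.107 and 0.341. The whole list includes promoter peaks and the members do not, and intergenic peaks alone were not set beside them.

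**Figure D2:**
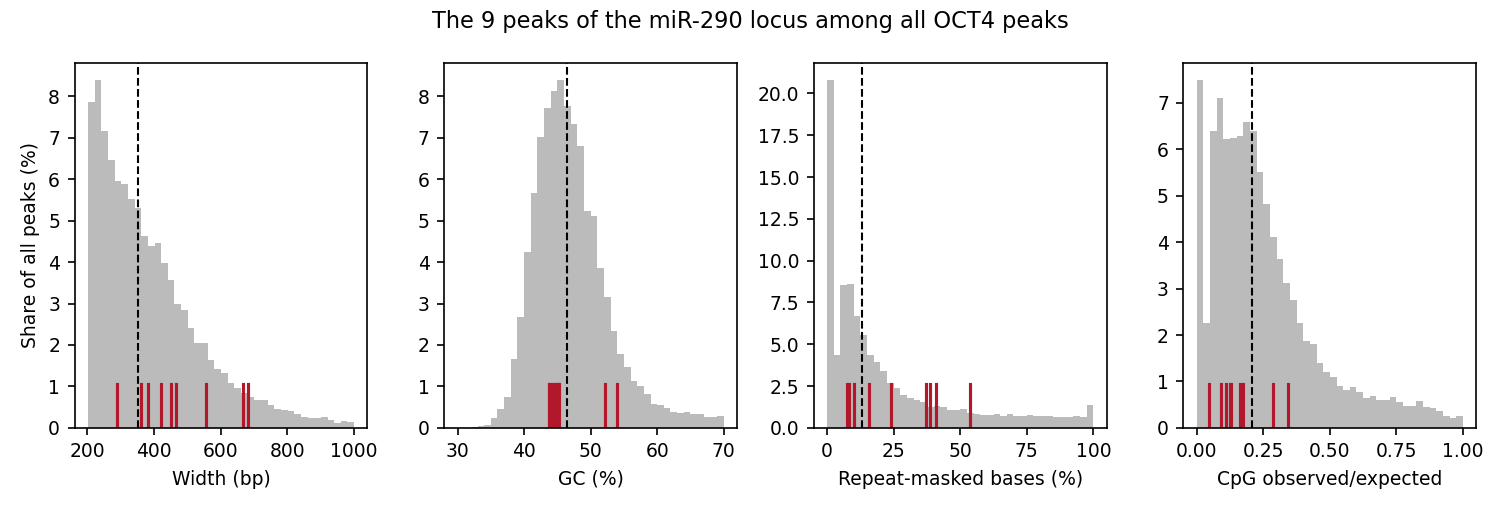
Share of all 26704 peaks (grey, % per bin) by width in bp, GC content in %, repeat-masked bases in % and CpG observed/expected ratio, with the 9 peaks of the miR-290 locus as red ticks and the median of all peaks as a dashed line. The axes of width, GC and ratio stop short of the highest values of all peaks, whereas all 9 members are shown, 8 of them right of the median width.

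Peaks differed in how much of them was repeat-masked, that is in bases the reference marks as interspersed or simple repeats. The share was 7.33% in peak 4, 8.3% in peak 9 and 9.99% in peak 6 and rose to 38.7% in peak 5, 40.8% in peak 7 and 53.8% in peak 3. Over 50% masked was thus 1 of 9 members, against 15.6% of all peaks, and the median of the members was 23.9% against 13%. Multi-copy sequence was rare in the whole list and was called in no member. A peak was called multi-copy where over 50% of its 31-mers occur at more than 1 place in the genome. This held for 0 of 9 members and 6.86% of all peaks, a difference that 9 members cannot resolve. Peak 8 came closest with 21.5% of its 31-mers, the most frequent of which occurs 7008 times, and 6 members had none. None of the 36 pairs of members shared a 31-mer, so the members were not copies of each other.

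The composite OCT4::SOX2 motif was searched as the octamer ATTTGCAT followed directly by the SOX element AACAATG, on either strand, with at most 3 mismatches in the 15 bases. It was found in 1 of 9 members, peak 3 (11.1%, exact 95% interval 0.281 to 48.2%, counting error only), against 11.5% of all peaks. The fewest mismatches in any member were 3 in peak 3, 4 in peak 6, 5 in peaks 1, 5, 7 and 9 and 6 in peaks 2, 4 and 8. The median of 5 was that of all peaks. In windows of the same width 5 kb to either side of the members and free of peaks, 1 of 15 held a match, against 1.86% of such windows around all peaks. At this cut-off the composite share at the locus was thus near that of the whole list. With 9 members of 1 locus it cannot be placed above or below.

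The match in peak 3 was on the minus strand, 108 bp right of the midpoint, with 1 mismatch in the octamer and 2 in the SOX element. It lay in a stretch that the reference does not mask, although 53.8% of the peak is masked. Peak 6 is printed because it holds the exact octamer, at chr7:3213805-3213812 on the minus strand, 156 bp right of the midpoint. The stretch is chr7:3213583-3213881 of the plus strand, read from GRCm38, with the match in capitals, so that it appears as the reverse complement of the motif.
Peak 6: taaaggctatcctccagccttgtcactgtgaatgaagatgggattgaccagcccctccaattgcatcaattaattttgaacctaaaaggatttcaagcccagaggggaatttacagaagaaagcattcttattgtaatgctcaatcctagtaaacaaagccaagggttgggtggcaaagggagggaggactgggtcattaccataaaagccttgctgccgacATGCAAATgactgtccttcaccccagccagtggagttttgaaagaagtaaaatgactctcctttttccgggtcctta

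Across the 120 kb there were 4 composite matches, of which 1 lay in a peak. The other 3 were ATTTACCTAAAAATG at chr7:3177807-3177821, ACTTCTATAACAATG at chr7:3211869-3211883 and ATTTCCACAACACTG at chr7:3240737-3240751. The middle one had an intact SOX element and 3 mismatches in the octamer, and lay 207 bp before the left edge of peak 5, while the others were 15270 and 17351 bp from the nearest peak. Over the genome 3223 of 158508 matches (2.03%) lay in a peak. Peaks covered 3.57% of the window and 0.39% of the genome.

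The exact octamer, the part of the composite that OCT4 contacts, was found in peak 6 (1 of 9, against 11% of all peaks). The SOX core, searched as CCATTGT or CCTTTGT on both strands, was found in peaks 4 and 7 (2 of 9, against 30.3%). None of the composite, the octamer and the SOX core was found in 5 of 9 members, peaks 1, 2, 5, 8 and 9, against 56.3% of all peaks. Most peaks, in the locus and in the list, thus held none of these letters as searched. With 1 mismatch allowed, a setting added after seeing the data, the octamer was in 4 of 9 members and 53.5% of all peaks. The study scored motifs with HOMER, an unlike measure, so its motif shares cannot be set beside these. The SOX cores are shown in capitals with 30 bases on each side.
Peak 4, chr7:3206644-3206710, plus strand: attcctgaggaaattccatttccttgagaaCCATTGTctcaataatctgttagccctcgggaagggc
Peak 7, chr7:3223225-3223291, plus strand: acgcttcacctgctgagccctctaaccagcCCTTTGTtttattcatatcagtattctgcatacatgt

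The words of 8 further factors were searched on both strands with no mismatch, N standing for any base. The STAT3 word TTCCNGGAA, bound by the factor that LIF activates, was found in peak 2, 78.5 bp from its midpoint (1 of 9, against 1.73% of all peaks). TCF, the DNA-binding partner of β-catenin in WNT signalling, had its word CTTTGAT in peak 9 (1 of 9, against 9.05%), 15 bp from the midpoint. The TEAD word ACATTCC, bound by the factors at the end of the Hippo pathway, was found in peak 8 (1 of 9, against 10.1%), 38.5 bp from the midpoint. The CTCF core CNAGNNGGC was found in peak 6 (1 of 9, against 16.9%), at 285 bp from the midpoint, and the GC box GGGCGG, a word of SP and KLF factors, in peak 4 (1 of 9, against 12.4%). The ESRRB word TCAAGGTCA (3.08% of all peaks), the KLF word GGGNGTGGC (4.74%) and the NANOG word GCCATTA (4.5%) were found in 0 of 9, for which the exact 95% interval reaches 33.6%, and 3 counts of 9 would be 33.3%. A missing word says only that these letters are not in the peak. With 9 members, 1 match is 11.1% with an exact interval of 0.281 to 48.2%. The members share 1 locus and are not replicates, so these intervals were not used to compare them with the list. The matches of the signalling factors are shown with 30 bases on each side.
Peak 2, STAT3, chr7:3201446-3201514, plus strand: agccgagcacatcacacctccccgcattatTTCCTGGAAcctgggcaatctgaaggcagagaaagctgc
Peak 9, TCF, chr7:3269333-3269399, minus strand: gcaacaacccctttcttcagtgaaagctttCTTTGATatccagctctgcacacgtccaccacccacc
Peak 8, TEAD, chr7:3267381-3267447, minus strand: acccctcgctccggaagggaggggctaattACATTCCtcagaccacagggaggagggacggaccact

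**Figure D3:**
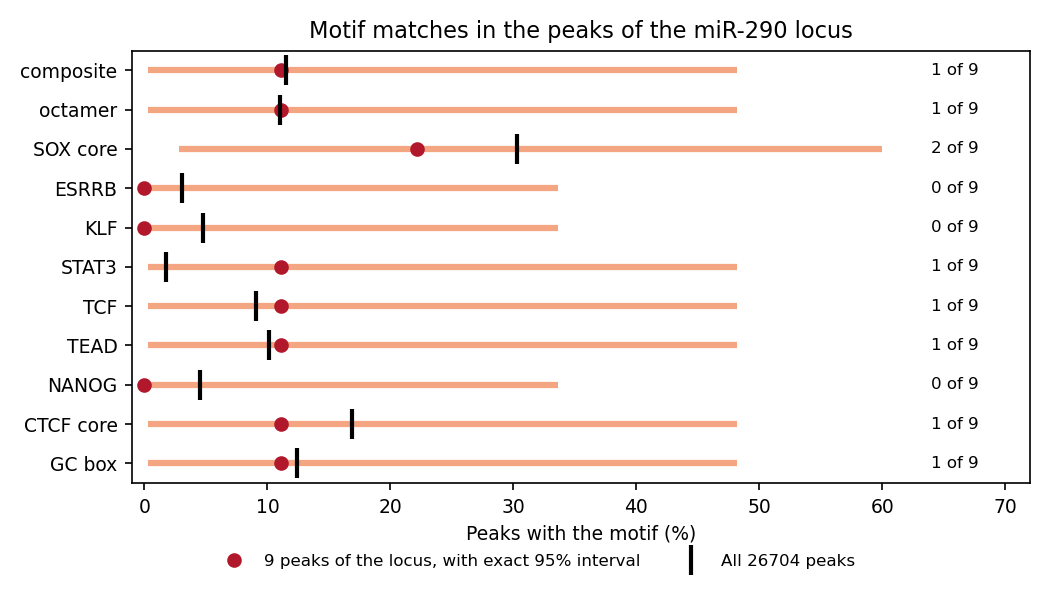
Share of peaks with each motif in %, for the 9 peaks of the miR-290 locus (red points, lines giving exact 95% binomial intervals) and all 26704 peaks (black ticks), with the member count at the right. All 11 intervals hold the share of the whole list, and no motif was found in more than 2 of 9 members.

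Among clusters of peaks joined within 10 kb, the 7 peaks of the miR-290 locus placed it in a tie. Sizes of 15, 11, 8 and 8 peaks came first, 10 clusters including this one had 7 peaks, and 17 had 6, so a list of the 10 largest depends on how the tie is broken and all 14 were kept. At 30.3 kb the miR-290 cluster was the longest of the 10 with 7 peaks. None of its 7 peaks was multi-copy, which also held for 6 of the 13 other clusters, whereas multi-copy peaks made up most of 4 of them, such as 7 of 7 at Gm26804 and 7 of 7 at Gm6356. The 13 other clusters held 105 peaks, of which 29 were multi-copy and 13 had the composite motif. The composite was in 1 of 7 peaks at miR-290, in 1 of 7 at Cdh1, the gene of E-cadherin, in 1 of 7 near Dppa5a, a gene known from pluripotent cells, in 4 of 7 near Tle4, a co-repressor, and in 0 of 15 at Sfi1, the largest. In 7 of the 13 others no peak held it. Before its comparisons the study removed very large regions, regions overlapping peaks of input samples made without precipitation, and regions on a published blacklist. The widest peak of this list was nevertheless 38168 bp. Whether Sfi1 or any other cluster overlaps input peaks or blacklisted sequence was not checked.

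**Figure D4:**
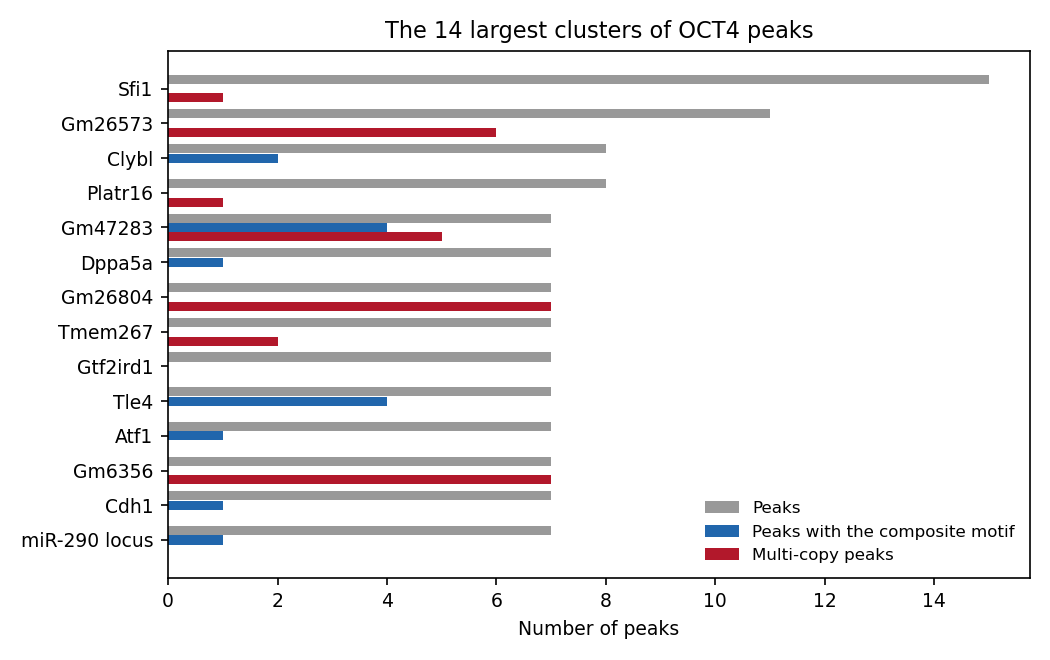
Number of peaks (grey), of peaks with the composite motif (blue) and of multi-copy peaks (red) in the 14 clusters with at least 7 peaks, named by the gene that holds most midpoints or else by the nearest protein-coding TSS. The miR-290 locus has 7 peaks, 1 with the composite motif and 0 multi-copy.

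The hairpins of miR-290 to miR-295 had 9 OCT4 peaks within 50 kb. Of 1802 annotated microRNA loci, hairpin genes within 10 kb of each other counting as 1 locus, 65.5% had at least 1 peak at that distance and the median was 1. More peaks than at miR-290 were found at 2 loci, Mir6352 with 12 and Mir3965 with 10, and 2 others, at Gm44394 and Gm22398, had 9 as well. Among 7 other microRNA clusters known from ES cells, 6 had a peak within 50 kb, with a median of 2. miR-106a-363 and the cluster of miR-182 had 4 each. miR-17-92, known for promoting proliferation, and the miR-302 cluster, which shares the AAGUGCU seed, had 2 each. Of the 2 at miR-302, 1 had the composite motif, and the nearest peak was 0.366 kb from the hairpins. Among 6 clusters known from differentiated tissue, 4 had a peak, with a median of 1.5, from 3 at miR-9-1, a neural microRNA, to 0 at miR-1a-1 and miR-208a, both of muscle. The ranges of these lists overlapped, 0 to 4 and 0 to 3 peaks, and the 9 at miR-290 lay above both, as the choice of the locus by its peak count implies. The size of that gap depends on the radius, since peaks 8 and 9 lay 46.6 and 48.5 kb from the end of Mir295. Within 100 kb there were 10 peaks at miR-290, and the highest counts of the lists were 8 at miR-302 and 8 at miR-9-1.

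**Figure D5:**
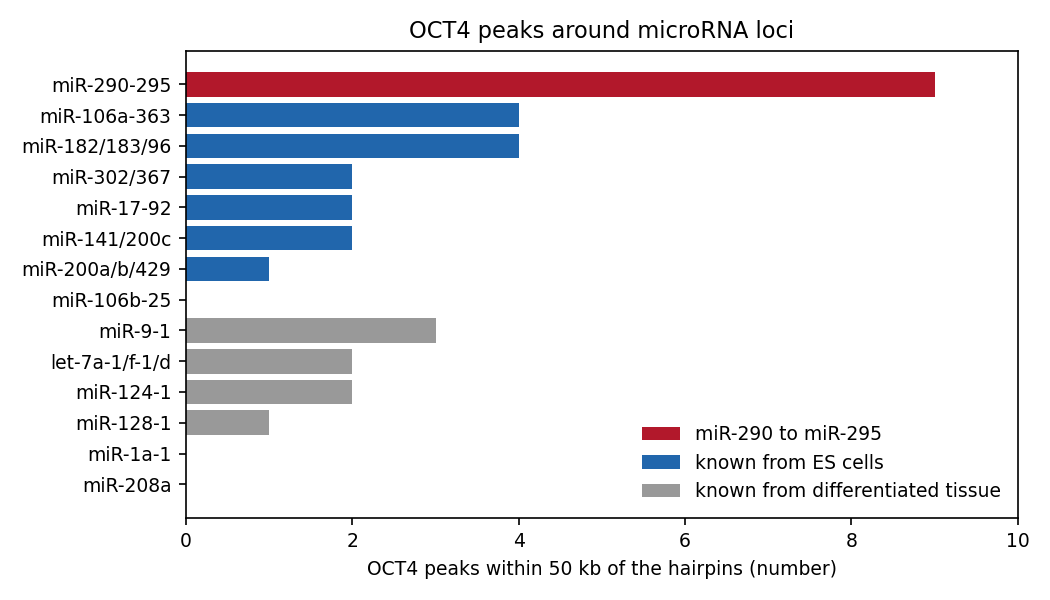
Number of OCT4 peaks within 50 kb of the hairpins at miR-290 to miR-295 (red), 7 clusters known from ES cells (blue) and 6 known from differentiated tissue (grey). The bars reach 9 at miR-290, at most 4 in the ES cell list and at most 3 in the other list.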

How the data were processed

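The deposited values are the start and end coordinates, in base pairs on mm10, of 26704 merged OCT4 peaks of 2TS22C cells. The authors aligned reads with STAR 2.6.1c, removed duplicates with Picard, called paired-end peaks with MACS2 2.1.1.20160309 and merged files with BEDTools. No other column of any library was present (0 left unused). The members and all lists and motifs were chosen with earlier results of these data known. Sequence and repeat masking came from GRCm38.p6, genes from GENCODE M21, and microRNAs and functional elements from RefSeq. Genes were named by rule if they had a TSS in the window or the nearest protein-coding TSS beyond it, for other clusters as the gene holding most midpoints or else the nearest coding TSS, and from 2 lists of microRNA clusters. D7Ertd143e, the RefSeq enhancer clusters and the microRNA loci with as many peaks as miR-290 or more were named after their values were seen. The motif search was tested on simulated sequence. No test was run, since the list holds no replicates. Intervals are exact 95% binomial intervals and cover counting error only. They treat members as independent, which neighbouring peaks of 1 locus are not. Python 3.11.15, NumPy 2.4.6, pandas 2.3.3 and SciPy 1.17.1 were used. The sequence around the composite match is not reported here. The BRG1 and H3K27ac libraries were not analysed here.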

Additional observations from a re-analysis of the deposited data

How the results depend on the processing

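No paired analysis was possible because peaks come as 1 merged list with no values for single libraries. For the same reason no replicate could be left out and SOX2 OFF was not set against SOX2 ON. Of 19 alternatives to 9 values, 15 left the value within its counting interval or within 1.5 times the count. The share of members with the composite motif went from 11.1% to 0% with at most 2 mismatches (2.21% of all peaks). It went to 0% in the central 200 bp (8.59% of all peaks). The match in peak 3 has 3 mismatches and lies 108 bp from the midpoint. With at most 4 mismatches the composite share was 22.2%, against 35.9% of all peaks. The octamer went from 11.1% to 0% in the central 200 bp (7.98% of all peaks), and allowing 1 mismatch, an alternative added after seeing the data, gave 44.4% against 53.5% of all peaks. The joined cluster went from 7 to 3 peaks when midpoints had to lie within 5 kb, and stayed at 7 with 20 kb. At most 2 mismatches left 0 composite matches in the window, so their share in peaks has no value. With no height, depth or replicate in the list, neither the strength of binding nor its error could be given for any peak.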
